A study of Drosophila melanogaster with 7 samples.

Results

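The genes described here are the maltases of Drosophila melanogaster and tobi, a related glucosidase. They were chosen by name, as every gene in the expression table whose FlyBase symbol starts with Mal-A or Mal-B, plus tobi. This gave 10 of 7608 genes, namely Mal-A1 to Mal-A8, Mal-B2 and tobi. Mal-B1, the only other such symbol in the annotation, was not analysed here. The group was proposed with the difference between the genotypes in these libraries already known, in particular that of tobi, so the values of its members are given as a description and without a test.

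RNA-seq was carried out on GFP+ cells sorted from adult midguts at day 10. The 3 libraries labelled Sox21a-/- came from flies of the line Esg-GFP; Sox21a-/-, which carry homozygous loss of the Sox-family transcription factor Sox21a, and the 4 libraries labelled wild type came from flies of the line Esg-GFP. Both genotypes thus carried the Esg-GFP fusion, a GFP tag on the transcription factor Esg that marks intestinal stem cells (ISCs) and enteroblasts (EBs), and w1118 midguts set the sorting gate. The deleted allele of these libraries is not given in the sources used here, and each library pooled cells from many guts. The comparison asks how the transcriptome of Esg+ progenitor cells differs without Sox21a. The labels do not say whether the libraries of a genotype came from separate cohorts of flies, so any p-value below measures only the spread between these libraries.

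Maltases are alpha-glucosidases. They cleave maltose and other short sugars with a terminal glucose and so release glucose, and in the fly midgut they are digestive enzymes of enterocytes (ECs), the absorptive cells into which EBs differentiate. The Mal-A genes lie side by side in a tandem cluster. The name tobi stands for target of brain insulin, and tobi encodes an alpha-glucosidase-like enzyme of the gut and fat body whose expression is known to respond to the insulin-producing cells and to adipokinetic hormone (AKH). Maltases and tobi are therefore genes known from differentiated gut cells rather than from ISCs.

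The values are FPKM, a read density that corrects for gene length and for the size of the library. The depth, estimated from the step that 1 read makes in the lowest values, was about 8488960 to 9175087 reads in Sox21a-/- replicates 1 and 3 and wild type replicates 3 and 4, and about 10507398 to 10601624 reads in Sox21a-/- replicate 2 and wild type replicates 1 and 2, so each depth level included Sox21a-/- and wild type libraries. A value of exactly 0, which 25.7% of all values had, can be a failed estimate here. Sox21a was at 96.3, 50.6 and 0 FPKM in Sox21a-/- and at 0, 0, 230.4 and 232.9 FPKM in wild type. Its level therefore cannot be used to verify single labels, and the genotype names stand for the labels. Among genes at 100 to 1000 estimated reads per library, wild type replicates 3 and 4 differed by a mean chi-square of 2.62 per gene, against 15.5 to 30.7 for the other wild type pairs. They were close but differed by more than sampling noise and were kept as 2 libraries, although the methods of the study name fewer biological replicates than there are wild type libraries, and whether both are separate samples is not given in the sources used here. With wild type replicates 3 and 4 averaged to 1 library, the log2 difference described below was 4.76 for tobi and 1.60 for Mal-A1, and of all genes 537 changed, against 702.

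The cell types were checked with marker genes. The genes esg and pros were not analysed here. Delta, the Notch ligand of ISCs, was at 3.57, 3.77 and 6.13 FPKM in Sox21a-/- and between 0.518 and 1.20 FPKM in wild type, and klu, an EB gene, was at 9.14, 11.4 and 16.6 FPKM in Sox21a-/- and between 29.7 and 49.0 FPKM in wild type. Of 7 progenitor genes tested by the criteria given below, only Delta rose, only klu fell and 5 did not pass. Of all genes tested, 6.67% rose and 4.02% fell. N, Su(H) and spdo overlapped between the genotypes, with log2 differences of 0.58, 0.45 and 0.30. Sox21a and Sox100B, at 0 in 3 and 6 libraries, overlapped as well. Enterocyte genes were present in every library although ECs lie outside the labelled cell type. Among 38 enterocyte genes, 17 were at 0 in no library, and the summed FPKM of these 17 was 4426, 6297 and 3376 in Sox21a-/-, against 237.4, 1676, 1272 and 1325 in wild type. Wild type replicate 1 stood apart as the library with the lowest value for 15 of the 17 genes. Fewer cells of a type and less RNA per cell cannot be told apart in such bulk libraries. Of the defining enterocyte markers, nub was at 4.68, 7.57 and 4.56 FPKM in Sox21a-/- and at 1.93, 4.40, 4.32 and 3.68 FPKM in wild type. Myo31DF was listed at 0 in every Sox21a-/- library and in wild type replicates 1 and 3, whereas it reached 240.7 and 212.2 FPKM in the remaining wild type replicates, 2 and 4. The study reports that staining for Pdm1, the protein product of nub, was absent from Sox21a mutant clones. The values here are RNA of sorted cells pooled from many guts, and whether these cells differentiated was not tested.

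The gene tobi (FBgn0261575) lies on the minus strand of chromosome 3R from 25344761 to 25346921 in the BDGP6 annotation, whereas the reads were mapped to Release 5. It was at 42.5, 84.6 and 25.5 FPKM in Sox21a-/- replicates 1 to 3, against 0.396, 0.700, 1.20 and 0.959 FPKM in wild type replicates 1 to 4. Every Sox21a-/- library was far above every wild type library. The lowest Sox21a-/- value was 21.2 times the highest wild type value. The means were 50.9 ± 30.5 FPKM in Sox21a-/- (SD, n = 3) and 0.813 ± 0.345 FPKM in wild type (SD, n = 4), a ratio of 62.5. On the log2(FPKM + 1) scale, which understates the change of weakly expressed genes, the difference was 4.69 (standard error 0.46). At the estimated depths these values stand for about 688, 1703 and 445 reads in Sox21a-/- and about 8, 14, 20 and 16 reads in wild type, so tobi was read in every library and the wild type values rest on few reads. Since its wild type mean is below 1 FPKM, tobi passed the filter on weak genes (an average of 1 FPKM or more across the 7 libraries) only through the Sox21a-/- libraries. The annotated exons of tobi share 78 bases with rha on the other strand, and in this unstranded preparation reads of that stretch cannot be assigned to either gene.

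**Figure D1:**
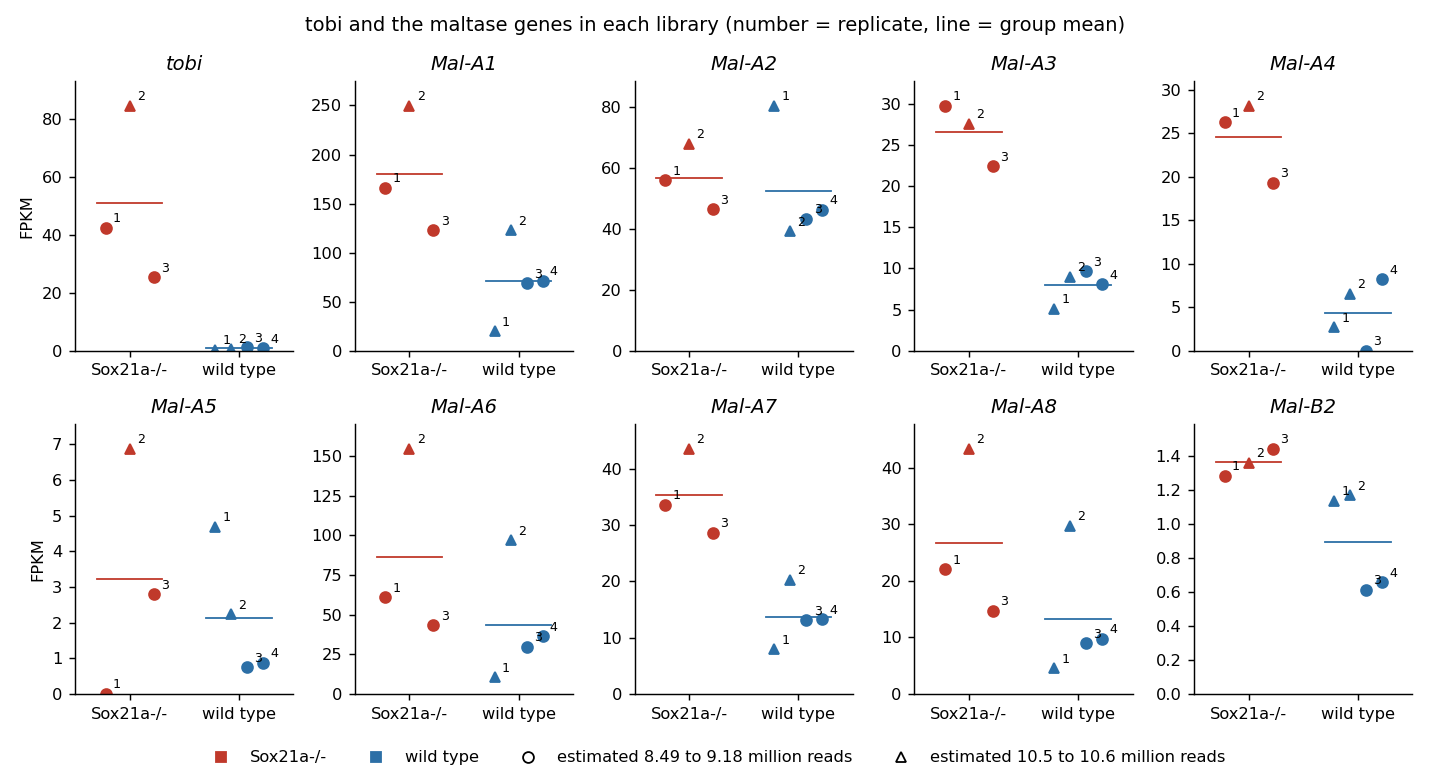
FPKM (vertical axes, from 0, each panel on its own scale) of tobi and the 9 maltase genes in the 3 Sox21a-/- libraries (red) and the 4 wild type libraries (blue); numbers are replicates, lines are group means, and circles and triangles are the lower and higher estimated depth. For tobi the Sox21a-/- libraries lie between 25.5 and 84.6 FPKM and all wild type libraries at or below 1.20 FPKM, whereas for Mal-A2 the groups overlap.

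The maltases were less uniform. Of the 10 genes, 6 (tobi, Mal-A1, Mal-A3, Mal-A4, Mal-A7 and Mal-B2) had every Sox21a-/- library above every wild type library, a pattern seen in 9.72% of the 6565 genes that passed the filter and in 16.1% of the 2460 of these at 0 in no library. The choice of the group used this contrast, so nothing is read from the count. All 10 members passed the filter. Their median log2 difference was 1.26, beside 0.04 for all genes tested. Without wild type replicate 1 the median was 0.89 and 7 members did not overlap (13% of all genes tested), and without wild type replicate 2 it was 1.63 and 8 did not overlap (11.4% of all genes tested). Leaving out any other single library left 6 members not overlapping, beside 10.6% to 15.7% of all genes tested.

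Mal-A1 (FBgn0002570), the most abundant maltase here, was at 166, 249.9 and 123.1 FPKM in Sox21a-/-, against 20.1, 122.8, 68.7 and 71.3 FPKM in wild type. The groups met almost exactly, since the lowest Sox21a-/- value (replicate 3) was 1.002 times the highest wild type value (replicate 2). The mean was 179.7 ± 64.5 FPKM in Sox21a-/- (SD, n = 3) and 70.7 ± 42.0 FPKM in wild type (SD, n = 4), a log2 difference of 1.52 (standard error 0.63). Without wild type replicate 1, the lowest library, it was 1.02. Its annotated exons share 82 bases with Cyp4e1 on the other strand.

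Mal-A3 (FBgn0002571) had the clearest separation among the maltases at 0 in no library. It was at 29.8, 27.6 and 22.5 FPKM in Sox21a-/-, against 5.08, 9.01, 9.66 and 8.08 FPKM in wild type. The lowest Sox21a-/- library was 2.33 times the highest wild type library. The log2 difference was 1.65 (standard error 0.27), and it stayed between 1.47 and 1.76 when single libraries were left out.

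Mal-A7 (FBgn0033296) was at 33.6, 43.6 and 28.7 FPKM in Sox21a-/-, against 7.92, 20.3, 13.1 and 13.3 FPKM in wild type. Again no library of one genotype reached into the other. The log2 difference was 1.35 (standard error 0.33). Mal-A4 (FBgn0033294) was at 26.3, 28.2 and 19.3 FPKM in Sox21a-/-, against 2.68, 6.55, 0 and 8.21 FPKM in wild type. The groups did not overlap, but the 0 of wild type replicate 3 may be a failed estimate. The log2 difference of Mal-A4 was 2.66 (standard error 0.81) with this 0 and 1.995 without wild type replicate 3.

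Mal-A6 and Mal-A8 overlapped between the genotypes. Mal-A6 (FBgn0050360) was at 61.1, 154.5 and 43.3 FPKM in Sox21a-/-, against 10.4, 96.9, 29.6 and 36.2 FPKM in wild type. Sox21a-/- replicates 1 and 3 were below wild type replicate 2, and the log2 difference was 1.16 (standard error 0.80). It was 0.64 without Sox21a-/- replicate 2 and 0.65 without wild type replicate 1. Mal-A8 (FBgn0033297) was at 22.04, 43.3 and 14.7 FPKM in Sox21a-/-, against 4.50, 29.7, 8.96 and 9.75 FPKM in wild type. Here too wild type replicate 2 lay between the Sox21a-/- libraries, and the log2 difference was 1.12 (standard error 0.66). It was 0.71 without Sox21a-/- replicate 2.

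Mal-A2, Mal-A5 and Mal-B2 differed little. Mal-A2 (FBgn0002569) was at 55.9, 67.9 and 46.4 FPKM in Sox21a-/-, against 80.4, 39.3, 43.3 and 46.2 FPKM in wild type. Its highest library was wild type replicate 1, the library in which Mal-A1, Mal-A3, Mal-A6, Mal-A7, Mal-A8 and tobi were each lowest. The log2 difference was 0.16 (standard error 0.29), and it was 0.02 when Sox21a-/- replicate 2 was left out. Leaving out wild type replicate 1 gave 0.38, and the groups of Mal-A2 then did not overlap. Mal-A5 (FBgn0050359) was at 0, 6.88 and 2.80 FPKM in Sox21a-/-, against 4.69, 2.24, 0.749 and 0.873 FPKM in wild type. The 0 of Sox21a-/- replicate 1 may be a failed estimate, and the log2 difference of 0.16 (standard error 0.82) was -0.52 without Sox21a-/- replicate 2 and 0.97 without Sox21a-/- replicate 1. Mal-B2 (FBgn0032382), from a separate locus on chromosome 2L, was at 1.29, 1.36 and 1.44 FPKM in Sox21a-/-, against 1.14, 1.17, 0.613 and 0.658 FPKM in wild type. The groups did not overlap, but the values stand for only about 11 to 31 reads per library, and the log2 difference was 0.33 (standard error 0.28). With means of 1.36 FPKM in Sox21a-/- and 0.895 FPKM in wild type, Mal-B2, like tobi, passed the filter on weak genes only through Sox21a-/-.

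At the top of the order of levels, Mal-A1 was the highest maltase in 6 of 7 libraries and Mal-A2 in the remaining 1, wild type replicate 1. The lowest value above 0 was that of Mal-B2 in all 7 libraries. Between them genes changed places, such as Mal-A8, which was above Mal-A7 in wild type replicate 2 and below it in the other 6 libraries. The summed FPKM of the 9 maltases was 396.1, 623.3 and 302.2 in Sox21a-/-, against 136.9, 328.0, 174.8 and 194.6 in wild type, so Sox21a-/- replicate 3 lay below wild type replicate 2. Mal-A1 made up 41.9%, 40.1% and 40.7% of that sum in Sox21a-/-, against 14.6%, 37.4%, 39.3% and 36.6% in wild type. Mal-A2 made up 14.1%, 10.9% and 15.4% in Sox21a-/-, against 58.7%, 12.0%, 24.8% and 23.8% in wild type.

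The 8 Mal-A genes lie within 24.3 kb of chromosome 2R in BDGP6, in the order of their numbers. Mal-A1, Mal-A3 and Mal-A7 are on the minus strand and the other 5 on the plus strand. The 3 minus strand genes were among the genes that did not overlap, as was Mal-A4. Mal-A2, between Mal-A1 and Mal-A3, overlapped between the genotypes through wild type replicate 1 alone. Mal-A5, between Mal-A4 and Mal-A6, overlapped as well. Related genes of a tandem cluster can share reads where their sequences are alike, and how such reads were assigned was not examined here.

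**Figure D2:**
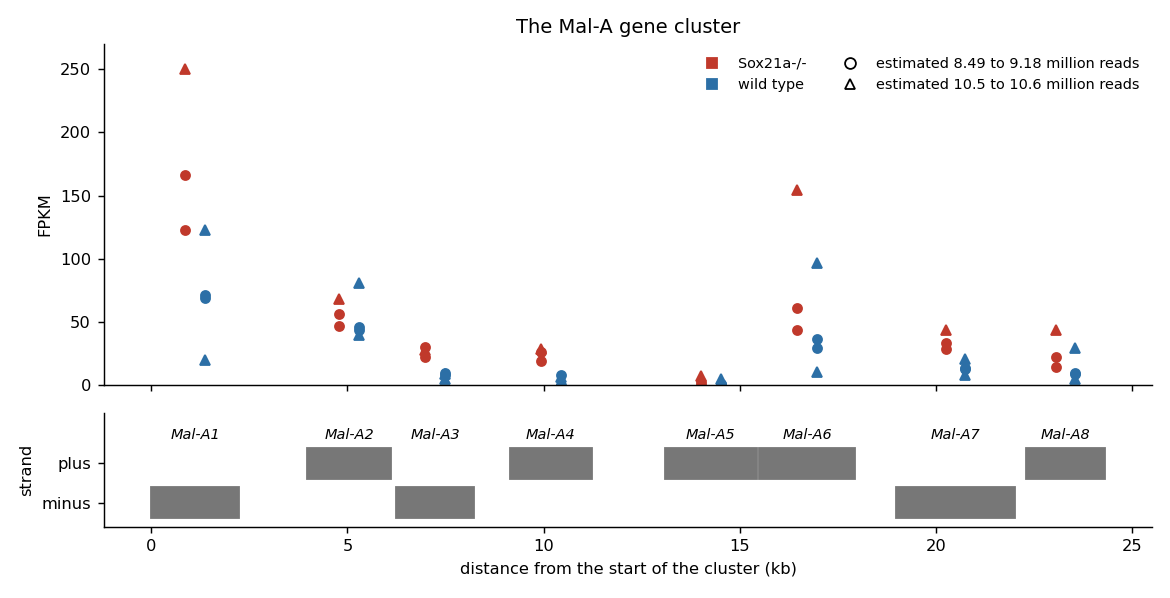
FPKM of the 8 Mal-A genes in the Sox21a-/- (red, left of each gene's centre) and wild type (blue, right) libraries, drawn to scale against distance from the start of the cluster in kb, with the gene spans by strand below. Mal-A1 (up to 249.9 FPKM) and Mal-A6 (up to 154.5 FPKM) reached the highest values, and the groups are apart at Mal-A3, Mal-A4 and Mal-A7 but not at Mal-A2.

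Mal-A1, Mal-A6, Mal-A7 and Mal-A8 ordered the libraries in the same way within each genotype, with replicate 2 highest, then 1, then 3 in Sox21a-/-, and replicate 2 highest, then 4, 3 and 1 in wild type. Their ratios to each other varied less than their levels. Mal-A8 varied 9.63-fold and Mal-A6 14.8-fold over the 7 libraries, whereas the ratio of Mal-A8 to Mal-A6 lay between 0.280 and 0.361 in Sox21a-/- and between 0.269 and 0.431 in wild type. The ratio of Mal-A6 to Mal-A1 lay between 0.351 and 0.618 in Sox21a-/- and between 0.431 and 0.789 in wild type, so it overlapped as well. In contrast, the ratio of tobi to Mal-A1 was between 0.207 and 0.339 in Sox21a-/-, against 0.00570 to 0.0198 in wild type. Within wild type tobi also followed another order, with replicate 3 highest, then 4, 2 and 1.

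Since Sox21a-/- replicate 2 and wild type replicates 1 and 2 were sequenced more deeply, the genotypes were also compared within each depth level. At both levels 8 of 10 members had every Sox21a-/- library above every wild type library, which held for 13.6% of all genes tested. The exceptions were Mal-A2 at the higher depth, where Sox21a-/- replicate 2 was below wild type replicate 1, and Mal-A5 at the lower depth, where Sox21a-/- replicate 1 was at 0. The 6 members that did not overlap over all libraries could not overlap within a level, so only Mal-A6 and Mal-A8 were added. The higher level held 1 Sox21a-/- library and 2 wild type libraries, and nothing is read from this count either. With depth level as a covariate the log2 difference was 4.74 for tobi and 1.53 for Mal-A1.

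Most of the listed enterocyte genes were also higher in Sox21a-/-. Of the 17 enterocyte genes at 0 in no library, 14 had every Sox21a-/- library above every wild type library, as had 16.1% of all tested genes at 0 in no library. The median log2 difference of the 17 was 1.61 (0.04 to 2.69). Over all 38 it was 1.18, with 27 genes above 0, and Myo31DF, at 0 in 5 libraries, was at -3.91. Of the whole list of 38, 14 rose, 0 fell and 24 did not pass the test (limma, with P no higher than 0.05 and a change of 2-fold or more, which 6.67% of genes tested passed upward and 4.02% downward). These criteria use the unadjusted P, and 1 of the 14, the lysozyme gene LysP, also had an adjusted p within 0.05 (Benjamini-Hochberg adjusted p = 0.00995 by limma). The others were the lipase gene mag, Npc1b, Vha100-4, the trypsin genes epsilonTry, zetaTry, etaTry, thetaTry and iotaTry, the serine protease genes Jon44E, Jon66Ci, Jon99Ci and yip7, and LysC. The summed FPKM of the list was 10449 to 24410 in Sox21a-/- and 1435 to 5804 in wild type. The summed FPKM of 6 hemocyte genes was 145.4 to 207.8 in Sox21a-/- and 2.81 to 133.7 in wild type, most of it from crq, which was listed at 0 in wild type replicate 1. Of these 6 genes, 2 (NimC1 and vkg) passed upward by unadjusted P, 0 passed downward, and all 4 at 0 in no library did not overlap between the genotypes. Sox21a-/- replicate 2 stood apart, as NimC1 was at 1.98, 15.0 and 2.01 FPKM in Sox21a-/-, against 0.102 to 0.876 FPKM in wild type, and vkg, a collagen gene, at 1.24, 18.8 and 2.23 FPKM in Sox21a-/-, against 0.203 to 0.289 FPKM in wild type. The other lists had summed FPKM of 51.5 to 211.9 in Sox21a-/- and 40.7 to 173.6 in wild type for 5 fat body genes. The sums were 8695 to 35604 in Sox21a-/- and 4519 to 28692 in wild type for 9 enteroendocrine genes, and 2.58 to 5.33 in Sox21a-/- and 1.21 to 7.94 in wild type for 3 visceral muscle genes. The part of these cell types in the maltase and tobi values was not tested.

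**Figure D3:**
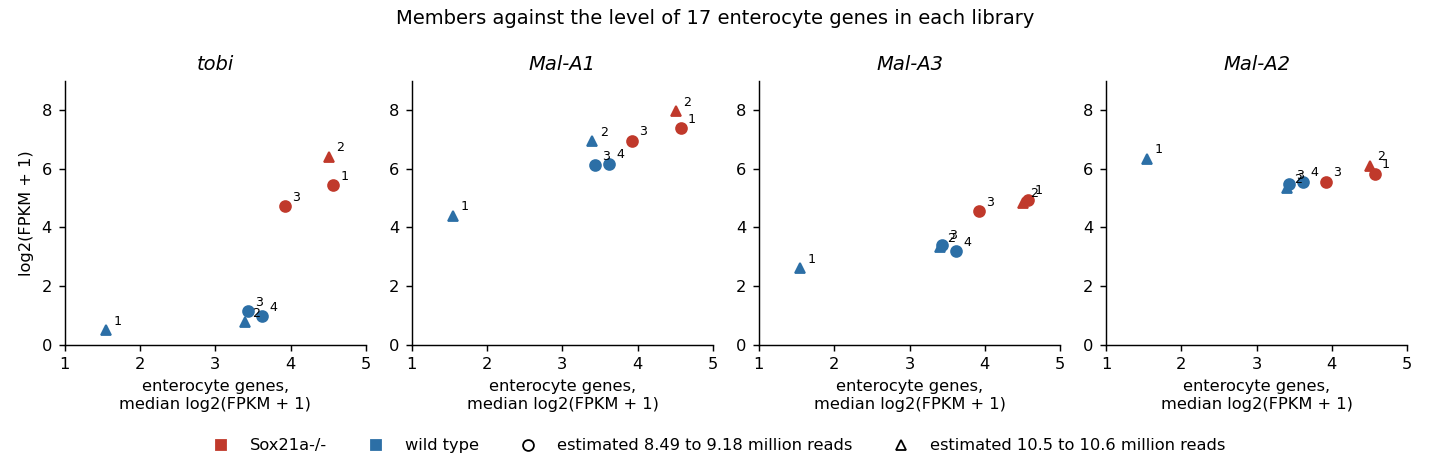
Level of tobi, Mal-A1, Mal-A3 and Mal-A2 as log2(FPKM + 1) against the median log2(FPKM + 1) of 17 enterocyte genes in the 3 Sox21a-/- (red) and 4 wild type (blue) libraries; numbers are replicates. The enterocyte median lies between 3.92 and 4.57 in Sox21a-/- and between 1.55 and 3.62 in wild type, and Mal-A1 and Mal-A3 are lowest where it is lowest, in wild type replicate 1, while Mal-A2 is highest there.

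The members were also taken relative to the median log2(FPKM + 1) of these 17 genes in each library, a scaling added once the data had been seen. This takes the same 1.33, the difference of that median between the genotypes, from the log2 difference of every member. The log2 difference was then 3.36 for tobi and 1.33 for Mal-A4. It was between -0.21 and 0.31 for Mal-A1, Mal-A3, Mal-A6, Mal-A7 and Mal-A8. For Mal-A2, Mal-A5 and Mal-B2 it was -1.18, -1.18 and -1.0005. These values only restate the differences above on the scale of the enterocyte genes, and every member with a log2 difference under 1.33 is negative on it by construction.

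**Figure D4:**
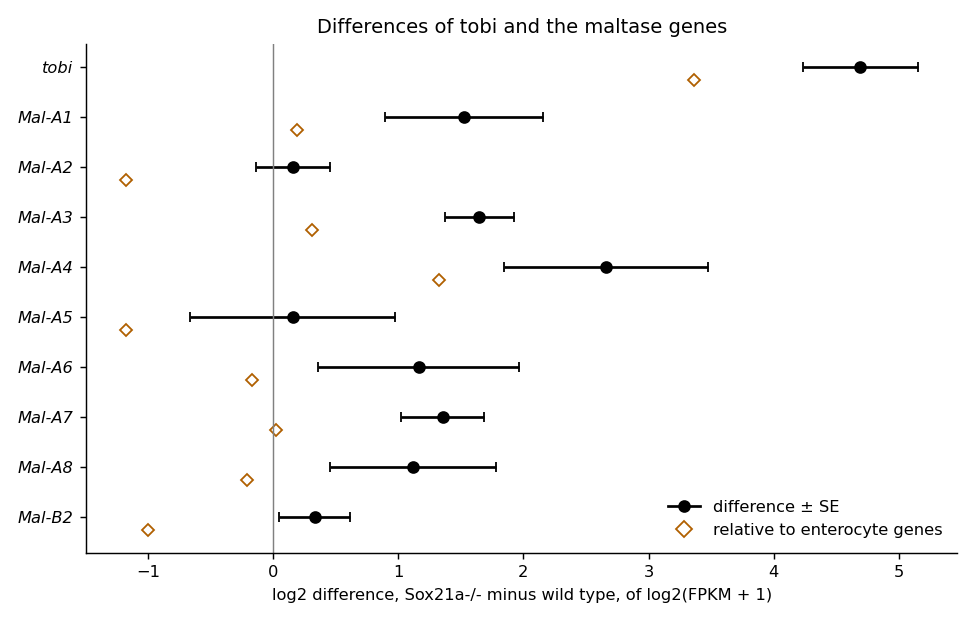
Log2 difference (Sox21a-/- minus wild type, of log2(FPKM + 1)) of tobi and the maltases, as black points with bars of 1 standard error over 3 and 4 libraries, and, as open diamonds, the difference relative to 17 enterocyte genes. For tobi both values are above 3 (4.69 and 3.36), while those of Mal-A1 are 1.52 and 0.19.

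Other enzymes that cleave sugar chains were compared on a list of 17 glycoside hydrolases, of which 1 entry is an older name of tobi and 12 others had values. Of these 12, 4 rose, 0 fell and 8 did not pass the test by the same criteria. Upward 6.67% of all genes tested passed, and downward 4.02%. The median log2 difference was 0.72, beside 0.04 for all genes tested, and only 6 of the 12 were at 0 in no library. LManII, a lysosomal alpha-mannosidase, was at 34.2, 44.0 and 28.6 FPKM in Sox21a-/-, against 8.51, 11.5, 12.7 and 13.6 FPKM in wild type, a log2 difference of 1.54 (standard error 0.24, Benjamini-Hochberg adjusted p = 0.0360 by limma). Its relatives LManI (log2 difference 1.68) and LManIII (2.38), and CG33080 (1.65), a further glycosidase, also rose by the unadjusted criteria, with Benjamini-Hochberg adjusted p between 0.0644 and 0.104 by limma. None of these 4 genes, all at 0 in no library, overlapped between the genotypes. Every Sox21a-/- library was above every wild type library in 16.1% of all tested genes at 0 in no library. Without Sox21a-/- replicate 3, 6 of the 12 passed upward and 2 downward.

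Among the 8 that did not pass, Gal, a beta-galactosidase, was at 4.29, 7.11 and 3.76 FPKM in Sox21a-/- and between 1.60 and 2.85 FPKM in wild type, which is a log2 difference of 0.86. Ect3, related to Gal, had a log2 difference of -0.21. GCS2alpha, a glucosidase of the endoplasmic reticulum, was at 67.6, 67.2 and 82.5 FPKM in Sox21a-/- and at 77.6, 0, 110.9 and 100.1 FPKM in wild type. LManIV was at or below 3.04 FPKM throughout. LManV and LManVI were listed at 0 in Sox21a-/- replicates 1 and 2 and at 65.9 and 97.6 FPKM in Sox21a-/- replicate 3, each above all its wild type values. The alpha-amylase genes Amy-p and Amy-d, near-identical copies whose reads may be split between them, were listed at 0 in every Sox21a-/- library. In wild type Amy-p was at 10.1, 215.7, 132.1 and 0 FPKM and Amy-d at 9.98, 0, 100.9 and 0 FPKM. The groups of both therefore overlap at 0.

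Sugar uptake and metabolism genes, which handle the glucose that maltases release, had values for 13 of 21 listed genes. Of these, 4 rose, 0 fell and 9 did not pass the test, while 6.67% of all genes tested passed upward and 4.02% downward. The median log2 difference was 1.38, and only 5 of the 13 were at 0 in no library. Hex-C, a hexokinase, was at 3.66, 3.15 and 1.74 FPKM in Sox21a-/-, against 0.478, 0.827, 0.744 and 1.07 FPKM in wild type, and had no 0. Tps1, which makes trehalose phosphate, was at 3.23, 6.02 and 2.42 FPKM in Sox21a-/- and listed at 0 in every wild type library (Benjamini-Hochberg adjusted p = 0.0340 by limma). The calls of the trehalose transporter Tret1-1 (40.9, 47.9 and 48.4 FPKM in Sox21a-/-, against 0, 0, 56.3 and 0 FPKM in wild type) and of the sugar transporter sut2 (6.08, 0 and 8.60 FPKM in Sox21a-/-, against 0 in every wild type library) also rest on zeros. With zeros treated as missing, 2 genes of the list passed. Without Sox21a-/- replicate 1 it was 1 gene, and without Sox21a-/- replicate 3 or any of wild type replicates 1, 2 and 4 it was 2 genes.

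For insulin, AKH and sugar sensing, pathways known to act on tobi and maltase expression, 8 of 24 listed genes had values. By limma 0 of 8 passed, 0 had an unadjusted P within 0.05, and the median log2 difference was -0.08. Of all genes tested, 6.67% passed upward and 4.02% downward. Only 4 of the 8 were at 0 in no library. The others had standard errors of 1.21 to 1.70, so a change in them could have been missed. Thor, a translation repressor and target of the insulin-regulated factor FOXO, was at 2234, 1516 and 1754 FPKM in Sox21a-/- and at 1023, 987, 1553 and 1701 FPKM in wild type, so the groups overlapped. The activin-like ligand daw (log2 difference 0.11, standard error 0.31) and the sugar-responsive factor cbt (-0.29, standard error 0.27) overlapped as well. The insulin receptor, FOXO and AKH receptor genes were not analysed here.

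The nearest genes with values on each side were compared with the members. Of the 6 around tobi, 4 were tested and none of these passed, although the 3 on one side lie 126.6 to 130.1 kb away. MED28, the farthest, at 130.1 kb and at 0 in no library, was at 8.67, 7.84 and 6.42 FPKM in Sox21a-/- and between 5.61 and 9.97 FPKM in wild type. On the Mal-A side, CG12780, 77.9 kb after the cluster, was at 127.2, 85.0 and 99.0 FPKM in Sox21a-/-, against 7.83, 15.8, 14.2 and 9.48 FPKM in wild type, a log2 difference of 3.06 (standard error 0.29, Benjamini-Hochberg adjusted p = 0.00573 by limma). Closer to it, 6.86 kb before the cluster, Cyp4ad1 was at 17.7, 0 and 9.19 FPKM in Sox21a-/- and listed at 0 in every wild type library, and it passed the unadjusted criteria (Benjamini-Hochberg adjusted p = 0.338 by limma). The other neighbours of the cluster, Cyp4e2, mir-986, Cyp6a14 and Cyp6a15Psi, each had 2 or more libraries at 0.

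The genes whose pattern over the 7 libraries was most like that of each member were ranked by Pearson's r of log2(FPKM + 1) among 2460 genes at 0 in no library. These are descriptions, since 7 libraries share their depth and their mixture of cells. For tobi they were CG6028 (0.991), the esterase gene alpha-Est1 (0.990), Npc1b (0.989), CG15533 (0.989) and vanin-like (0.988). Npc1b, a sterol uptake gene of the midgut on the enterocyte list, was at 2.27, 2.53 and 1.79 FPKM in Sox21a-/-, against 0.184, 0.531, 0.478 and 0.446 FPKM in wild type. Of the other 4, vanin-like was at 23.5, 26.2 and 16.3 FPKM in Sox21a-/-, against 0.592, 1.45, 2.42 and 2.01 FPKM in wild type. None of the genes most like tobi was a maltase, and Mal-A3 was the member most like it (0.966).

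For Mal-A1 the closest genes were CG8661 (0.996), CG5767 (0.995) and CG6295 (0.994), and for Mal-A3 they were CG8093 (0.999), the trypsin-like gene lambdaTry (0.992) and CG9673 (0.990). For Mal-A7 they were Lapsyn (0.997), GstD7, a glutathione transferase (0.996), and Bace, an aspartic protease of the midgut (0.993). Mal-A6 was closest to CG31300 (0.991), CG17930 (0.989) and CG6484 (0.987). Mal-A8 was closest to CG31300 (0.993), Mal-A6 (0.986) and CG12374 (0.977). Mal-B2 was closest to rau (0.958), CG32066 (0.956) and Ugt37C2 (0.954).

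Mal-A2 was unlike the other maltases, with r between -0.30 and 0.37 to each of Mal-A1, Mal-A3, Mal-A6, Mal-A7, Mal-A8 and Mal-B2. The genes closest to Mal-A2 were Cp18 (0.985), an eggshell protein of the ovary, Cyt-c-d (0.984), a cytochrome c of the male germline, and Cox11 (0.979), a cytochrome oxidase assembly factor. Cp18 was at 77.7, 137.7 and 51.4 FPKM in Sox21a-/-, against 144.9, 34.6, 45.1 and 47.9 FPKM in wild type. It was thus highest in Sox21a-/- replicate 2 and wild type replicate 1, the same libraries as Mal-A2.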

How the data were processed

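RNA-seq libraries of sorted Esg-GFP+ cells (3 Sox21a-/-, 4 wild type, day 10) were used. Single-end reads had been aligned by the authors to Release 5 with TopHat 2.0.10, who deposited FPKM per library from Cufflinks 2.2.1, for 7608 genes and without counts. The filter that left these genes is not given in the sources used here. Names, exon lengths and positions were taken from the BDGP6 annotation by FlyBase ID (7339 matched).

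Depth was estimated from the FPKM steps of genes at 1 read (exon length less 200 bases, 14 to 42 genes per library). Of the values checked, 70.3% to 74.4% were whole reads within 0.1, so reads per gene are approximate and no count test was run. limma 3.58.1 (R 4.3.3, trend and robust, two-sided) was fitted to log2(FPKM + 1) of the 6565 genes averaging 1 FPKM or more, with Benjamini-Hochberg adjustment over all of them. The step was checked on simulated data with normally distributed noise. These lacked the zeros of the real values, so the check does not cover genes with zeros. Genes with P no higher than 0.05 and a change of 2-fold or more numbered 438 higher and 264 lower in Sox21a-/-. Other steps used pandas 2.3.3, numpy 2.4.6, matplotlib 3.10.9 and scipy 1.17.1 under Python 3.11.15.

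The members and lists were chosen with earlier results of these data known. Genes named are all members, list genes that passed, the glycoside hydrolases, the marker genes nub, Myo31DF, esg, Delta and pros, the genes most like each member at 0 in no library (5 for tobi, 3 for the others) and the nearest 3 genes with a row on each side of tobi and the cluster. Sox21a, klu, N, Su(H), spdo, Sox100B, crq, Thor, daw, cbt, Fbp1, apolpp and the yolk genes were named after their values were seen. Alternatives were pseudocount 0.1, median-ratio scaling, quantile normalization, a filter at 5 FPKM or none, limma without trend and robust settings, zeros treated as missing, depth level as a covariate, wild type 3 and 4 averaged, a replicate block and each library left out. Genes at 0 in no library, scaling to enterocyte genes and member counts without each library were added after seeing the data.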

Additional observations from a re-analysis of the deposited data

Results flagged for a closer look

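Within the 4 wild type libraries, Mal-A2 in replicate 1 lay far from the others, at 80.4 FPKM against 39.3 to 46.2 FPKM, with its gap just past Dixon's critical value. Amy-d in wild type replicate 3 also lay far from the others, at 100.9 FPKM against 0 to 9.98 FPKM. Of 22 genes examined in this way, 2 were set apart, and chance sets apart about 1.1 of 22.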

How the results depend on the processing

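No alternative changed the direction of tobi, Mal-A1, Mal-A3, Mal-A4 or Mal-A7. The groups of these genes did not overlap, so most alternatives could not have changed it. Only those that rescale the libraries could: quantile normalization, median-ratio scaling and scaling to enterocyte genes. Scaled to enterocyte genes, which was added once the data had been seen, the log2 difference was 3.36 for tobi, 0.19 for Mal-A1, -1.18 for Mal-A2, 0.31 for Mal-A3, 1.33 for Mal-A4, -1.18 for Mal-A5, -0.17 for Mal-A6, 0.021 for Mal-A7, -0.21 for Mal-A8 and -1.0005 for Mal-B2. This scaling takes the same 1.33 from every member. With pseudocount 0.1 the log2 difference was 5.72 for tobi and 0.61 for Mal-B2, and after quantile normalization it was -0.011 for Mal-B2 and -0.03 for Mal-A2. With single libraries left out it was 4.25 to 5.09 for tobi, 1.02 to 1.87 for Mal-A1, 0.02 to 0.38 for Mal-A2, 0.64 to 1.68 for Mal-A6 and -0.52 to 0.97 for Mal-A5.

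Of all genes, 702 changed, against 458 with a mean of at least 5 FPKM and 297 among genes at 0 in no library, where fewer genes were tested, and 509 to 588 with single libraries left out. Glycoside hydrolases numbered 4, against 2 with a mean of at least 5 FPKM and 4 to 8 with single libraries left out (8 without Sox21a-/- replicate 3). Sugar uptake and metabolism genes numbered 4, against 1 with a mean of at least 5 FPKM, 2 with zeros treated as missing, 2 with depth level as a covariate and 1 to 4 with single libraries left out (1 without Sox21a-/- replicate 1).

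Whether replicate numbers pair the libraries is not given by the labels, and the main fit assumed no pairing. The deviations of same-numbered libraries from their genotype means correlated at 0.01, 0.37 and 0.20. Those of differently numbered libraries correlated between -0.28 and 0.27, so a pairing is not excluded. With the replicate block, in which wild type replicate 4 has no partner, 444 genes changed in all and 1 of the sugar uptake and metabolism genes, tobi was at 4.74 and Mal-A1 at 1.61. Where not stated, the cause of a change was not tested. Depth limits Mal-B2 and the wild type values of tobi.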

Other observations

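The yolk protein genes Yp1, Yp2 and Yp3, expressed in fat body and ovary, were also highest in Sox21a-/- replicate 2 and wild type replicate 1, the 2 libraries in which Mal-A2 was highest. Yp1 was at 20.6, 77.5 and 15.6 FPKM in Sox21a-/- and at 64.2, 25.7, 12.5 and 15.5 FPKM in wild type. The log2 difference of Yp1 between the genotypes was 0.28 (standard error 0.77). Fbp1 and apolpp, the other fat body genes with values, did not share this pattern. In Sox21a-/- Fbp1 was lowest in replicate 2, at 0.941 FPKM, and apolpp was at 0 there. In wild type apolpp was highest in replicate 1, at 12.5 FPKM, whereas Fbp1 was highest in replicate 4, at 0.319 FPKM. The libraries were made from GFP+ cells sorted from dissected midguts, and how much RNA of other tissues remained was not measured. Whether RNA of other tissues contributed to Mal-A2 was not tested.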
